A study of Mus musculus with 2 samples.

Results

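The transcripts of 10 genes that mark the early steps of B cell development were followed in the bone marrow of Col1a1fspKO mice and of WT littermates. They are Rag1, Rag2, Dntt, Il7r, Vpreb1, Vpreb3, Igll1, Ebf1, Pax5 and Ms4a1, chosen by name, and all 10 were listed in both tables, out of 13211 genes in either. The study asked how loss of type I collagen in Fsp1-lineage cells changes the marrow. Col1a1fspKO mice were Fsp1-Cre;Col1a1flox/flox, and the WT controls were Cre-negative;Col1a1flox/flox, so both genotypes carried the floxed allele and neither received a treatment. The Fsp1 promoter drives the Cre, and the gene deleted is one that stromal cells use to make matrix. Fsp1 is the gene S100a4, which had 2026 UMIs (captured mRNA molecules) in 312 Col1a1fspKO cells and 2184 in 321 WT cells, so the gene that drives the Cre was also read in marrow cells. Marrow was flushed from femur and tibia at 2 months of age, live cells were sorted, and the cells of 2 mice were pooled into 1 library per genotype for 10x Genomics 3' sequencing. Each library is thus a single pool without a replicate, and the genotypes were compared without a test.

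A total of 8647722 unique molecular identifiers (UMIs) came from 1309 Col1a1fspKO cells and 8624469 from 1169 WT cells. Medians were 4954 and 5534 UMIs a cell, and 2 cell barcodes occurred in both libraries. Col1a1, the targeted gene, had 3 UMIs in the Col1a1fspKO library and was not listed in WT, too few to check the labels. Levels are the UMIs of a gene summed over a class of cells, per 1000000 UMIs of that class (CPM), with exact Poisson 95% intervals. These intervals cover counting error only, not the spread between cells or between mice.

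B cells develop in the marrow from lymphoid progenitors through pro-B and pre-B stages to immature and mature B cells. The heavy chain gene and then a light chain gene are cut and joined from V, D and J segments, between rounds of division that are driven by interleukin 7 from stromal cells. While no light chain is made, VpreB and lambda 5 stand in for it as the surrogate light chain of the pre-B cell receptor. The transcription factors Ebf1 and Pax5 set and hold the B cell programme, and Ms4a1 (CD20) appears on the surface late in the sequence.

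The 2478 cells were clustered without the 10 genes and without the immunoglobulin segments, so that the position of a cell did not rest on the genes compared. B cells-like cells, those that scored highest for a marker list with Cd79a, Cd79b, Ly6d and Blnk, numbered 248 (18.9% of cells) in Col1a1fspKO and 222 (19.0%) in WT. Clustered again by themselves, they fell into 7 sub-clusters, called here by a leading gene. The Erg, Myl10, Ccne2, Cdc20 and Btg2 sub-clusters scored highest for the early markers Myl4, Lef1, Sox4, Akap12, Cecr2, Erg and Tifa, and together they are the early B-like cells. The Ccne2 sub-cluster was led by genes of DNA replication and the Cdc20 sub-cluster by genes of mitosis. The Cd74 sub-cluster was led by Cd74, Fcmr, Ltb and H2-Eb1 and makes up the late B-like cells. The early markers summed to 921 to 4051 CPM in the early sub-clusters of both libraries and to 443 and 665 CPM in late cells. Erg was at 0 in late cells, but also in Btg2 cells of both libraries and in Ccne2 cells of WT. Late markers summed to 15000.3 and 13710.0 CPM in late cells and to at most 2242 CPM in an early sub-cluster. Although left out of the clustering, Rag1 was among the leading genes of Btg2, Dntt and Vpreb1 among those of Erg, and Ms4a1 among those of Cd74. A sub-cluster of 18 and 10 cells led by S100a8 and other neutrophil genes was left unnamed, and it is in the B cells-like totals only. Its neutrophil markers summed to 218182 and 324950 CPM, against 2842 to 10325 in the other sub-clusters.

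Early B-like cells were 173 of 248 B cells-like cells in Col1a1fspKO (69.8%, exact Clopper-Pearson 95% interval 63.6 to 75.4) and 166 of 222 in WT (74.8%, 68.5 to 80.3). Late B-like cells were 57 (23.0%) and 46 (20.7%). The intervals overlap for both stages. Early cells were shallower in Col1a1fspKO than in WT, with medians of 4982 and 6869 UMIs. Btg2 cells had medians of only 2816 and 3086.5 UMIs, while those of Myl10 cells were 17816 and 18058. Shares of cells with a transcript were therefore taken after each cell had been thinned to 2500 UMIs, and neutrophils, which should lack these genes, gave the background of free RNA.

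Most transcripts of these genes lay in the B lineage. For 7 of the 10 genes, over 90% of the UMIs of both libraries were in B cells-like cells, from 90.3% for Rag2 and 92.4% for Ms4a1 to 96.7% for Vpreb1 and 97.1% for Igll1. Rag1 was just under that limit at 89.8% of 59 UMIs. Il7r had 80.8% there and Dntt only 65.6%. In neutrophils the 10 genes had between 0 and 49.0 CPM in Col1a1fspKO and between 0 and 21.3 CPM in WT. Vpreb3 was the highest of them there, and thinned it was seen in 8.16% and 5.37% of neutrophils, which is the background for this gene.

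**Figure D1:**
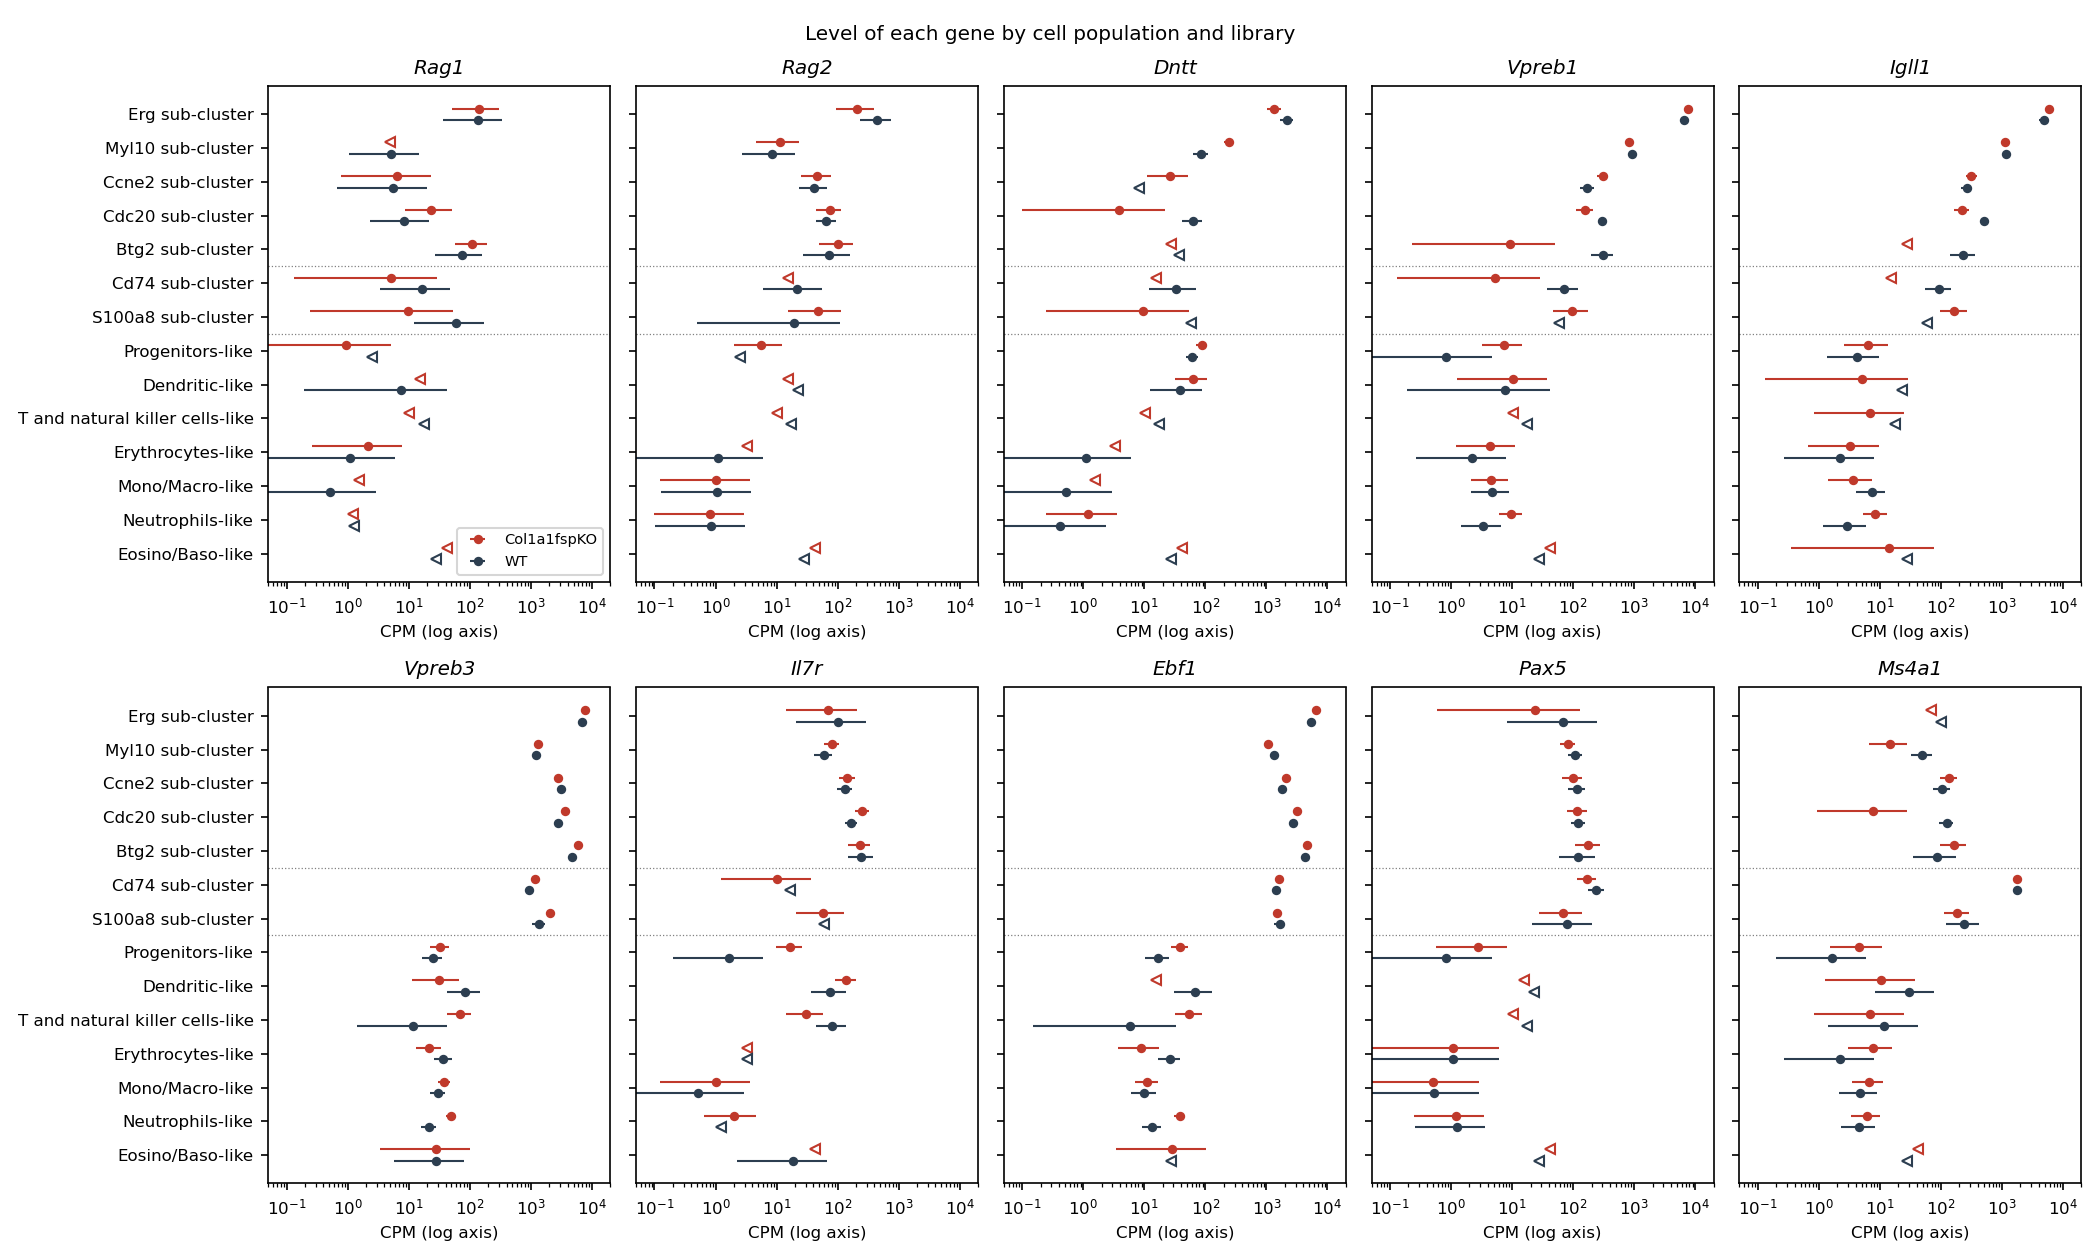
CPM of each of the 10 genes (log axis) in the sub-clusters of B cells-like cells and in the other cell classes, with 1 panel per gene, Col1a1fspKO in red and WT in a dark tone. Points are summed UMIs of 1 library, bars are exact Poisson 95% intervals, open triangles mark the level of 3 UMIs where a library had 0, and dotted lines divide early B-like, other B cells-like and non-B classes. Vpreb1 and Igll1 are highest in the Erg sub-cluster (7470.0 and 5771 CPM in Col1a1fspKO), while Ms4a1 is highest in the Cd74 sub-cluster (1729 CPM).

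Rag1 and Rag2 encode the recombinase that cuts at V, D and J segments. They are neighbours on chromosome 2 (GRCm38, GENCODE M21), Rag1 at 101638282 to 101649501 on the minus strand and Rag2 at 101624718 to 101632529 on the plus strand, with 5752 bases between them. Their transcripts were scarce, with 31 and 28 UMIs of Rag1 over all Col1a1fspKO and WT cells and 75 and 80 of Rag2. The gene B230118H07Rik shares 80 of 6608 exonic bases with Rag1, on the same strand, and 208 of 3424 with Rag2, on the other strand, so a few reads there have no certain owner.

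Rag1 was highest in the Erg and Btg2 sub-clusters. In the Erg sub-cluster it had 6 UMIs in Col1a1fspKO, 139.6 CPM (95% interval 51.2 to 304), and 4 in WT, 134 CPM (36.5 to 343). In the Btg2 sub-cluster it had 12 UMIs, 110.2 CPM (57.0 to 193), and 6 UMIs, 73.2 CPM (26.9 to 159). These levels do not differ beyond their intervals, and in Col1a1fspKO both lie above the 23.4 CPM (8.58 to 50.9) of the Cdc20 sub-cluster. In the Myl10 sub-cluster, the deepest, Rag1 had 0 UMIs in Col1a1fspKO and 3 in WT. Thinned, 21.6% and 13.6% of Btg2 cells held a Rag1 UMI, against 4% and 1.89% of Ccne2 cells. No neutrophil of either library held one, a count that still leaves room for 0.583% and 0.701% of these cells.

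Rag2 was more evenly spread. The Erg sub-cluster was again at the top with 9 UMIs in Col1a1fspKO, 209 CPM (95.8 to 398), and 13 in WT, 435 CPM (232 to 744). The Btg2 (101 and 73.2 CPM), Cdc20 (74.1 and 65.8) and Ccne2 sub-clusters (45.6 and 41.1) followed, with intervals that overlap from one to the next in both libraries. Only Myl10 (11.3 and 8.46 CPM) stood below them among the early sub-clusters. The Cdc20 sub-cluster held 32.3% of all Rag2 UMIs, whereas Btg2 held the most Rag1, 30.5%.

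In single cells both recombinase transcripts were seldom caught together. Of 80 thinned B cells-like cells with either, 5 had both. Among early B-like cells, one or the other was found in 15.6% (11.4 to 20.7) of the 256 cells with a UMI of the cell cycle list (Mki67, Top2a, Birc5, Ccnb2, Cdk1, Ube2c). Of the 83 cells without such a UMI it was found in 38.6% (28.1 to 49.9). The direction was the same in each library, 15.7% against 38.5% in Col1a1fspKO and 15.6% against 38.7% in WT. All these cells had been thinned to the same depth, so the shares are relative to the RNA of a cell. Unthinned, Rag2 had 19 UMIs in 39 Cdc20 cells against 11 in 37 Btg2 cells of Col1a1fspKO. In WT it had 31 in 50 against 6 in 22. Rag1 went the other way, with 6 UMIs in Cdc20 against 12 in Btg2 cells of Col1a1fspKO and 4 against 6 in WT.

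The 250 bases before each start are shown because the recombinase genes were high in the same sub-clusters. They are RefSeq windows on GRCm38.p6, printed along the strand of the gene, Rag1 from chr2:101649533-101649782 (minus strand) and Rag2 from chr2:101624462-101624711 (plus strand). Capitals mark matches on either strand to an E-box (CAGGTG or CACCTG), to a core of EBF1 sites (CCCNNGGG) or to a core of IKZF1 sites (TGGGAA or TTCCCA).
Rag1: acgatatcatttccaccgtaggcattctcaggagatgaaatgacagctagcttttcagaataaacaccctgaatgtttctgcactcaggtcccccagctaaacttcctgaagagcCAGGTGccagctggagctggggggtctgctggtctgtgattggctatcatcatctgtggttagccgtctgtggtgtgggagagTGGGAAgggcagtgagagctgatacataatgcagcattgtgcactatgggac
Rag2: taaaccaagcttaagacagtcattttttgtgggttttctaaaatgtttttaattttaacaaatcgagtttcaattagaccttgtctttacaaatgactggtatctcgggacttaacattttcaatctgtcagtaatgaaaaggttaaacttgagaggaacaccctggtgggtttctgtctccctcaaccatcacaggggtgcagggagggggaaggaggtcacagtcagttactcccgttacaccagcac
The Rag1 window holds CAGGTG 135 bases and TGGGAA 52 bases before the start, and the Rag2 window holds none of these motifs. Over 32851 promoter windows of this length, 17.2% held the E-box, 11.8% the EBF1 core and 21.6% the IKZF1 core. A match is a description of letters, and none of the motifs overlaps another in these windows.

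Dntt encodes terminal deoxynucleotidyl transferase, the polymerase that adds bases without a template at V(D)J junctions. It lies on chromosome 19 at 41029275 to 41059525, on the plus strand. Its transcripts marked a narrow set of early cells. In the Erg sub-cluster 13 of 14 cells in Col1a1fspKO and 8 of 8 in WT held it, at 1326 CPM (1005 to 1719) in Col1a1fspKO against 2141 (1649 to 2734) in WT. The Myl10 sub-cluster had 239.9 CPM (203 to 282) in Col1a1fspKO against 84.6 (62.8 to 111) in WT, from 13 and 5 of 33 cells. Cdc20 cells had 1 UMI in Col1a1fspKO, 3.90 CPM (0.0987 to 21.7), against 29 in WT, 61.5 CPM (41.2 to 88.4). In the Btg2 sub-cluster, where Rag1 was high, Dntt had 0 UMIs in both libraries, which allows up to 8.11% and 13.6% of cells with a UMI. Because Myl10 cells are deep and Erg cells shallow, the order depends on the scale. Counted per cell, Dntt had 4.07 UMIs in Erg against 4.48 in Myl10 cells of Col1a1fspKO, and 8 against 1.52 in WT.

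Few cells carried most of the signal. The 10 cells with most Dntt held 51.2% of all its UMIs in the Col1a1fspKO library and 63.6% in the WT library, and the single highest cell held 34 and 27 UMIs. After thinning, 39 of the 40 B cells-like cells with Dntt also had Vpreb1 (24 of 25 in Col1a1fspKO and 15 of 15 in WT). Il7r was found in 15% of those 40 cells and in 22.1% of the rest, shares whose intervals overlap.

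Dntt was also the one gene of the set with a large pool outside the B lineage, with 30.3% of its UMIs (26.5 to 34.3) in Progenitors-like cells and 3.06% in Dendritic-like cells. Progenitors-like cells had 94 UMIs in Col1a1fspKO, 86.8 CPM (70.2 to 106), in 16 of 86 cells, and 74 in WT, 61.3 CPM (48.1 to 77.0), in 12 of 86. Dendritic-like cells had 12 and 5 UMIs, none of them with more than 2 in a cell. T and natural killer cells-like cells had 0 in both libraries.

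Progenitors-like cells with Dntt differed from the rest of that class in other genes, which were chosen after their values were seen. Flt3, a cytokine receptor of lymphoid and multipotent progenitors, had 215 CPM in cells with Dntt and 5.27 in cells without in Col1a1fspKO, and 216 and 13.5 in WT. Satb1, a chromatin organiser of lymphoid cells, had 253 against 17.9 CPM and 173 against 27.8 CPM. Ebf1 followed the same direction, with 201 against 14.8 CPM and 97.0 against 9.87 CPM. The granule genes ran the other way. Elane, the neutrophil elastase, had 0 against 2096 CPM in Col1a1fspKO and 21.6 against 2857 in WT, and Mpo, the myeloperoxidase, 245 against 850.0 and 269.6 against 1441. Kit, the stem cell factor receptor, was close in both kinds of cell (44.6 and 45.3 CPM, then 53.9 and 47.6), with overlapping intervals. Cells with Dntt were shallower, with median UMIs of 8437 against 10552.5 in Col1a1fspKO and 7463 against 13839 in WT.

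**Figure D2:**
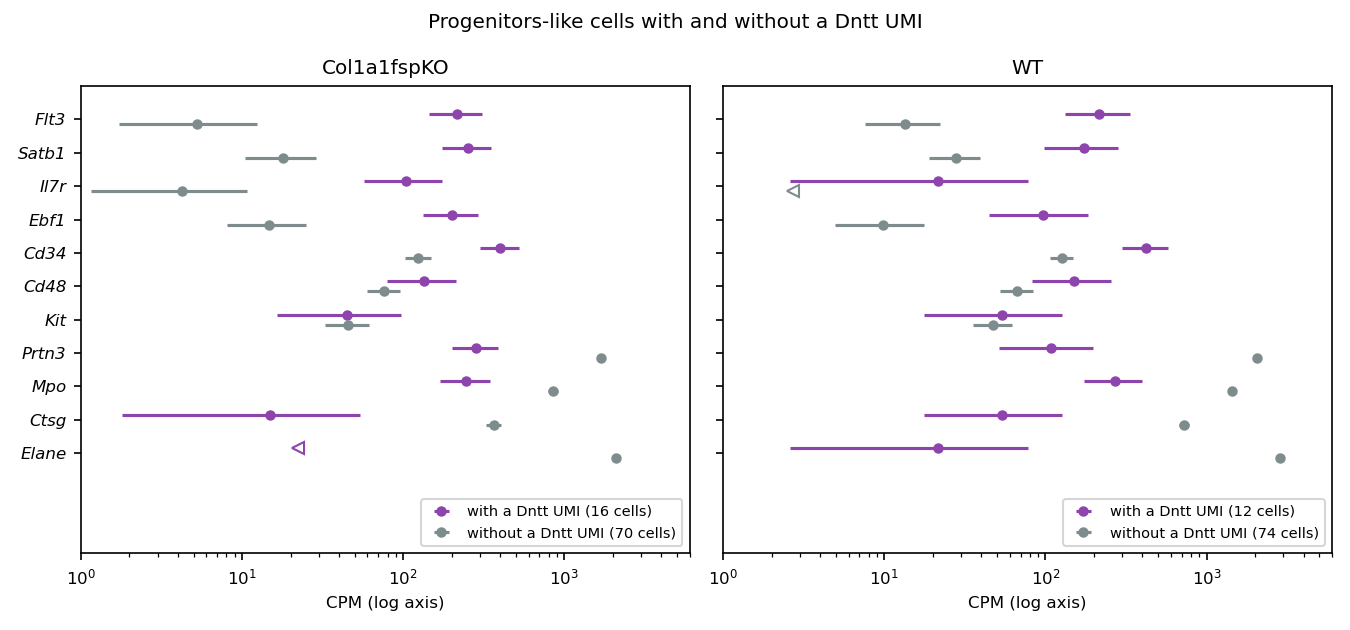
CPM (log axis) of 11 genes in Progenitors-like cells with a Dntt UMI (purple) and without (grey), for Col1a1fspKO (16 and 70 cells) and WT (12 and 74 cells). Bars are exact Poisson 95% intervals and open triangles the level of 3 UMIs where there were 0. Flt3 and Satb1 lie to the right in cells with Dntt (215 against 5.27 CPM for Flt3 in Col1a1fspKO), and Prtn3, Mpo, Ctsg and Elane to the left.

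Vpreb1 and Igll1 encode VpreB1 and lambda 5, the parts of the surrogate light chain. They are neighbours on chromosome 16, Vpreb1 at 16868403 to 16870843 and Igll1 at 16860671 to 16863985, both on the minus strand and 4417 bases apart. Their close relative Vpreb2 has a transcript identical to that of Vpreb1 at 739 of 759 aligned bases (97.4%), so reads of these 2 genes are hard to tell apart and the split between them is uncertain. Vpreb2 had 73 and 68 UMIs in B cells-like cells, against 979 and 987 of Vpreb1.

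Igll1 is shown with its RefSeq window of 250 bases before the start, chr16:16863986-16864235 (GRCm38.p6, minus strand), because it is the member whose window held both an EBF1 core and an E-box. Capitals mark the motifs listed above.
Igll1: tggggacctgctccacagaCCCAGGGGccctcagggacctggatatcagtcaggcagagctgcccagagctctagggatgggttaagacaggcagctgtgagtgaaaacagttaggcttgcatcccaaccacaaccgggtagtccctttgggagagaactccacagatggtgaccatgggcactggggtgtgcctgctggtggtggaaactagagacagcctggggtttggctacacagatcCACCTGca
CCCAGGGG lies 231 bases and CACCTG 8 bases before the start. The corresponding window of Vpreb1, chr16:16869256-16869505, overlaps an exon of another annotated Vpreb1 transcript and holds CAGGTG 88 bases before the start. Of the 9 members with a RefSeq promoter entry, which leaves out Ms4a1, 3 held the E-box, 1 the EBF1 core and 2 the IKZF1 core.

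Both genes peaked in the Erg sub-cluster and were next highest in Myl10. Vpreb1 had 7470.0 CPM (6675 to 8334) in Col1a1fspKO against 6489 (5608 to 7469) in WT in Erg cells, all 22 of which held it after thinning. Myl10 cells had 832 CPM in Col1a1fspKO against 932 in WT, and 75.8% and 78.8% of the thinned cells held it. For Igll1 the levels were 5771 CPM (5075 to 6536) in Col1a1fspKO against 4817 (4062 to 5671) in WT in Erg cells, and 1102 CPM in Col1a1fspKO against 1179 in WT in Myl10 cells. From there both were lower in the dividing cells, with 313 CPM in Col1a1fspKO against 266 in WT for Igll1 in Ccne2. They were nearly absent from late B-like cells, where Vpreb1 had 1 UMI in Col1a1fspKO and 13 in WT, and Igll1 0 and 17. The late WT UMIs came from 2 cells for Vpreb1 and 3 for Igll1. A count of 0 in 57 cells still allows up to 5.26% of late cells with a UMI.

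The lead of Erg over Myl10 in CPM went with a difference in depth. In CPM, Vpreb1 was 8.98 times as high in Erg as in Myl10 in Col1a1fspKO and 6.96 times in WT. Per cell it was 1.47 and 1.45 times, at 22.9 against 15.5 UMIs and 24.2 against 16.7. Igll1 was 5.23 and 4.09 times as high in CPM, but 0.860 and 0.852 times per cell. The order of these sub-clusters for Igll1 thus turns with the scale.

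In single cells the pair went together. Of 163 thinned B cells-like cells with Vpreb1 or Igll1, 112 had both (68.7%), 55 of 74 in Col1a1fspKO and 57 of 89 in WT. Over early and late cells together, cells with the surrogate light chain and cells with Ms4a1 were almost separate, and 6 of 281 cells with either had both. Among early cells alone, 5 of 23 cells with Ms4a1 had Vpreb1 or Igll1 (21.7%, 7.46 to 43.7). Of early cells without Ms4a1, 48.1% (42.5 to 53.8) had them, and the intervals overlap.

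**Figure D3:**
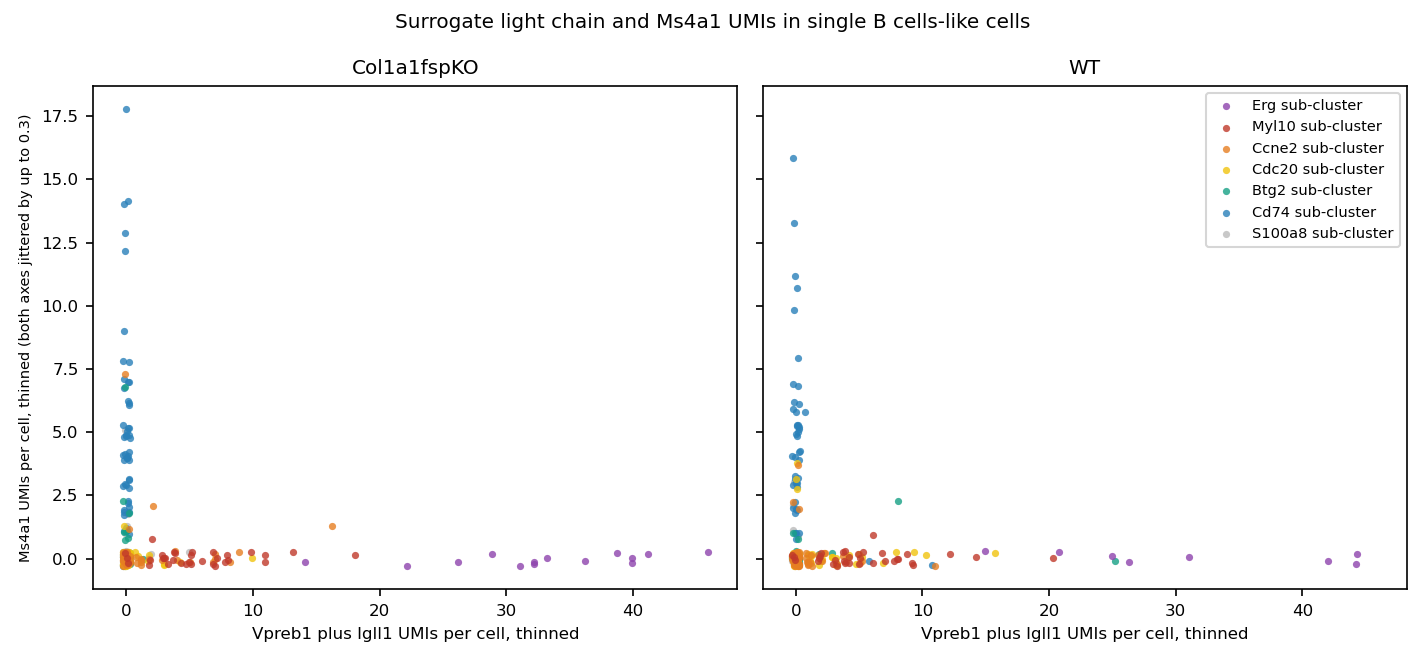
UMIs of Vpreb1 plus Igll1 (horizontal axis) and of Ms4a1 (vertical axis) in each B cells-like cell after thinning to 2500 UMIs, for Col1a1fspKO and WT. Each point is a cell, coloured by sub-cluster and jittered. Cells lie along one axis or the other, with Erg cells far out on the first and Cd74 cells on the second, and 6 of 281 cells with either have both.

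Vpreb3 encodes a VpreB-like protein that pairs with immunoglobulin chains inside the cell. It lies on chromosome 10 at 75943057 to 75949657, on the plus strand. It was found through the whole early compartment, in 96.0% of thinned early cells in Col1a1fspKO and 97.0% in WT. Beside Erg cells (7749 and 6790.0 CPM), the Btg2 sub-cluster was high, with 5870.3 CPM (5424 to 6344) in Col1a1fspKO against 4671 (4215 to 5163) in WT. Unlike Vpreb1 and Igll1 it persisted in late cells, at 1178 CPM (1031 to 1341) in Col1a1fspKO against 943 (808 to 1095) in WT, and 63.2% and 63.0% of the thinned late cells held it, far above neutrophils.

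Il7r encodes the alpha chain of the interleukin 7 receptor. It lies on chromosome 15 at 9505788 to 9530176, on the minus strand. It was high in the Btg2 and Cdc20 sub-clusters, with 229.7 CPM (149 to 339) in Col1a1fspKO against 244 (149 to 377) in WT in Btg2. Cdc20 cells had 253 CPM (196 to 323) in Col1a1fspKO against 166 (131 to 207) in WT. In CPM, Il7r was lower in Myl10, with 81.1 CPM (60.2 to 107) in Col1a1fspKO against 59.2 (41.2 to 82.3) in WT. Counted per cell, the deep Myl10 cells had 1.52 and 1.06 UMIs. Btg2 cells had 25 UMIs in 37 cells and 20 in 22, so the order of Myl10 and Btg2 turns with the scale. Erg cells, with 3 UMIs in each library, had 69.8 CPM (14.4 to 204) and 100.3 CPM (20.7 to 293), intervals too wide to place them above or below these sub-clusters. Late B-like cells had 2 and 0 UMIs.

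Over B cells-like cells, Il7r was seen in 27.4% (22.2 to 33.1) of cells with a cell cycle UMI and 13.3% (8.85 to 18.8) of those without, but among early cells the shares were 28.9% and 27.7%, with overlapping intervals. Il7r shared a cell with Ms4a1 in 3 of 222 cells with either.

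Outside the B lineage, Il7r was also present in Dendritic-like cells (27 UMIs, 139 CPM, and 10 UMIs, 75.7 CPM) and in T and natural killer cells-like cells (30.8 and 81.7 CPM). Progenitors-like cells had 18 UMIs in Col1a1fspKO, 6 of them in 1 cell, and 2 in WT.

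Ebf1 and Pax5 encode the transcription factors that start and hold the B cell programme. Ebf1 spans 44617317 to 45008091 on chromosome 11 (plus strand), and Pax5 spans 44524757 to 44710487 on chromosome 4 (minus strand). Ebf1 was found in 94.8% and 96.4% of thinned early cells and in 91.2% and 89.1% of late cells. Its level was highest in Erg (6516 and 5419 CPM) and Btg2 cells (4621 and 4305 CPM), and lowest in the deep Myl10 cells (1065 and 1314 CPM). Per cell, Erg and Myl10 cells were close, with 20 and 19.9 UMIs for Col1a1fspKO, then 20.2 and 23.5 for WT.

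Ebf1 was low outside the B lineage, with 37.8 and 13.3 CPM in neutrophils and 11.2 and 9.93 CPM in Mono/Macro-like cells. Dendritic-like cells had 0 UMIs in Col1a1fspKO and 9 in WT, 68.1 CPM (31.2 to 129). T and natural killer cells-like cells had 16 UMIs in Col1a1fspKO, 54.7 CPM (31.3 to 88.8), and 1 in WT. Progenitors-like cells had 37.9 CPM (27.2 to 51.4) and 16.6 CPM (10.1 to 25.6), and there the Dntt-positive cells held the higher levels given above.

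In CPM, Pax5 went the other way along the stages. Erg cells had 1 UMI in Col1a1fspKO and 2 in WT, early cells together 98.3 CPM (82.2 to 117) in Col1a1fspKO against 114 (97.5 to 132) in WT, and late cells 169.8 CPM (117 to 238) in Col1a1fspKO against 239.9 (174 to 322) in WT. The early Btg2 sub-cluster had 175 CPM (105 to 273) in Col1a1fspKO and 122 (58.5 to 224) in WT, intervals that overlap those of late cells. Counted per cell, the deeper early cells held slightly more Pax5 than late cells in both libraries, so the order turns with the scale. Of the 135 thinned B cells-like cells with Pax5, 126 also had Ebf1 (93.3%). In Progenitors-like, Dendritic-like, T and natural killer cells-like, Mono/Macro-like cells and neutrophils Pax5 had at most 2.77 CPM.

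Ms4a1 encodes CD20, a surface protein of B cells beyond the pre-B stage. It lies on chromosome 19 at 11249675 to 11266241, on the minus strand. Late B-like cells had 336 UMIs in Col1a1fspKO, 1729 CPM (1549 to 1924), and 325 in WT, 1772 CPM (1584 to 1975), and they held 68.3% of all Ms4a1 UMIs. After thinning, 89.5% and 91.3% of late cells held it, and none of the Erg cells did. In early cells it was uneven. A single Col1a1fspKO cell and 5 WT cells with at least 10 UMIs held 33 of 70 and 101 of 132 of the early Ms4a1 UMIs. None of the 6 had Vpreb1, and their late markers summed to 6338 and 6949 CPM, against 749 and 879 CPM over all early cells.

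**Figure D4:**
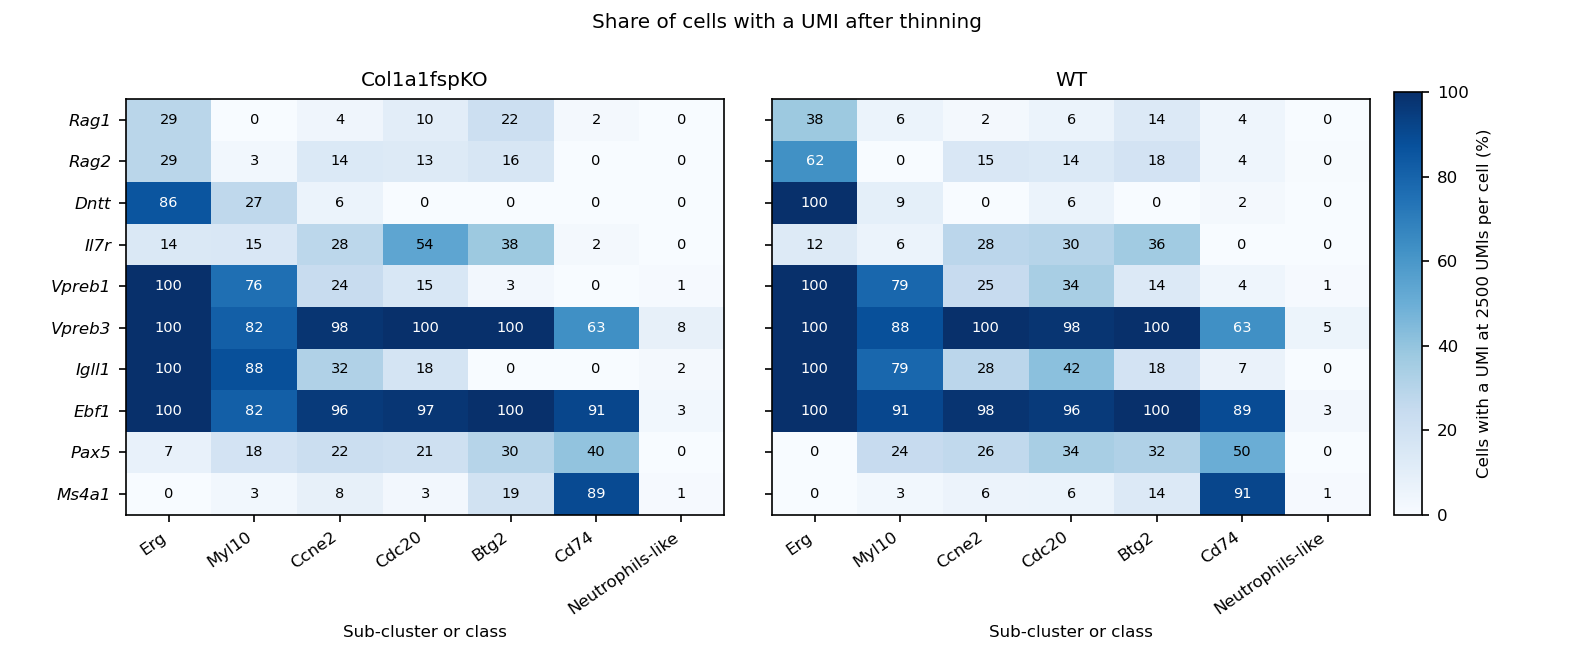
Percent of cells with at least 1 UMI of each gene (colour and printed value) in the 6 named sub-clusters of B cells-like cells and in neutrophils, after each cell was thinned to 2500 UMIs, for Col1a1fspKO (left) and WT (right). Dntt, Vpreb1 and Igll1 fill the Erg column (85.7%, 100% and 100% in Col1a1fspKO), Ebf1 and Vpreb3 span the early columns, and Ms4a1 stands in the Cd74 column (89.5% and 91.3%).

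Set side by side, early over late B-like cells, the 10 genes showed the order of the stages. A ratio counted as past 1.5-fold where both sides together had at least 20 UMIs. In Col1a1fspKO 9 of 10 genes passed, 7 higher in early cells and 2 in late cells, and in WT 8 of 10, 6 and 2. This is a large difference between stages in general. Of all genes with that many UMIs, 57.5% passed in Col1a1fspKO (40% higher in early cells and 17.5% in late cells) and 54.3% in WT (34.9% and 19.3%). In these shares a side with 0 UMIs was kept at 0, so such a gene always passed. For the 10 genes it was set to 3 UMIs, so the shares are upper limits beside their counts. Vpreb1 had 968 UMIs in early and 1 in late cells of Col1a1fspKO, and in WT its ratio was 8.93 (5.20 to 16.8). Igll1 was at least 52.5-fold higher in early cells of Col1a1fspKO, taking the late cells at the floor of 3 UMIs, and 8.39 times as high (5.22 to 14.5) in WT. Dntt was at least 10.4-fold higher and 2.84 times as high (1.27 to 7.87), where all 6 late UMIs of WT came from 1 cell. Vpreb3 had ratios of 2.26 (1.98 to 2.60) and 2.62 (2.25 to 3.07). Ebf1 stayed within 1.5-fold at 1.36 (1.21 to 1.53) and 1.44 (1.27 to 1.64). In CPM, Pax5 was lower in early cells at 0.579 (0.393 to 0.876) and 0.474 (0.339 to 0.676). Ms4a1 was far lower at 0.0304 (0.0231 to 0.0394) and 0.0484 (0.0392 to 0.0594). Rag1 was on different sides of 1 in the libraries, with 3.79 (0.623 to 156) from 26 against 1 UMI and 0.755 (0.222 to 3.98) from 19 against 3. The stages were found by clustering these same cells, so these ratios describe them and are no test.

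Between the genotypes, most of the genes differed by less than 1.5-fold. In B cells-like cells 1 of 10 passed, Dntt, against 14.2% of all 8150 genes with 20 UMIs (6.64% higher and 7.56% lower in Col1a1fspKO). In early B-like cells 3 of 10 passed, Rag1 and Dntt higher and Ms4a1 lower in Col1a1fspKO, against 15.3% of genes (7.44% and 7.91%). In late B-like cells 0 of the 4 genes with enough UMIs passed, against 25.5% (9.22% and 16.3%). The median ratio of the genes was 1.05 in B cells-like cells and 1.06 in early cells.

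Dntt had 214 UMIs in early cells of Col1a1fspKO, 161 CPM (139.9 to 184), and 143 in WT, 92.9 CPM (78.3 to 109), a ratio of 1.73 (1.39 to 2.15). It was carried by 30 and 16 cells, and thinned by 13.9% (9.10 to 19.9) and 8.43% (4.69 to 13.7) of early cells, whose intervals overlap. With all cells thinned to one depth, or with each cell given equal weight, the ratio was 1.13 and no longer past 1.5. The sub-clusters did not share one direction, since Dntt was higher in Col1a1fspKO in Myl10 cells (2.84, 2.05 to 3.99) and lower in Erg cells (0.620, 0.426 to 0.90). Cdc20 cells had 1 Dntt UMI in Col1a1fspKO against 29 in WT, and Ccne2 cells 8 against 0. Erythrocyte markers also differed over early cells, with 7581 CPM in Col1a1fspKO and 12165 in WT (7 of 7 seen in each), and their part in the early ratios was not tested. In Progenitors-like cells the Dntt ratio was 1.42 (1.03 to 1.95). The 3 cells with most Dntt held 37.2% of those UMIs in Col1a1fspKO and 56.8% in WT, a spread between cells that the interval leaves out.

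Rag1 had 26 UMIs in Col1a1fspKO and 19 in WT over early cells, a ratio of 1.58 with a counting interval of 0.842 to 3.02 that holds 1. Rag2, from 60 and 70 UMIs, had a ratio of 0.990 (0.690 to 1.42). A difference in the recombinase genes was thus not detectable at this depth. Ms4a1 had 52.6 CPM in Col1a1fspKO against 85.8 in WT over early cells, a ratio of 0.613 (0.452 to 0.825), which turned to 1.17 with cells thinned to one depth. The cells with late markers described above hold 33 of 70 of these UMIs in Col1a1fspKO and 101 of 132 in WT. The other early cells hold 37 and 31. In late cells, its own stage, Ms4a1 had a ratio of 0.976 (0.835 to 1.14).

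The abundant genes were close between the libraries. Igll1 had a ratio of 1.04 (0.959 to 1.13) in early cells and Ebf1 1.04 (0.987 to 1.09). Vpreb1 had 1.15 (1.05 to 1.26) and Vpreb3 1.08 (1.03 to 1.13), both above 1 beyond counting error and well within 1.5. Il7r had 1.17 (0.953 to 1.45), from 140.4 and 119.6 CPM. Pax5 was lower in Col1a1fspKO in both stages, at 0.865 (0.684 to 1.09) in early and 0.708 (0.437 to 1.14) in late cells, and both intervals hold 1. Vpreb3 in late cells had 1.25 (1.02 to 1.53) and Ebf1 1.10 (0.934 to 1.30). Beside the late cells stands a difference in plasma cell markers (Sdc1, Jchain, Xbp1, Mzb1), which summed to 3180.2 CPM in Col1a1fspKO with all 4 seen, and to 371 CPM in WT with Sdc1 and Jchain at 0, and its part in these ratios was not tested.

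In Cdc20 cells, led by mitosis genes, 5 of the 9 genes with enough UMIs passed 1.5-fold, 1 higher and 4 lower in Col1a1fspKO. The share over all genes was not taken for this sub-cluster. Dntt had 1 UMI in Col1a1fspKO, 3.90 CPM, against 29 in WT, 61.5 CPM. Ms4a1 had 2 UMIs, 7.80 CPM, against 58, 123 CPM. The others were Vpreb1, Igll1 and Il7r. In the Cdc20 sub-cluster Vpreb1 had 156 CPM (111 to 212) in Col1a1fspKO against 301 (254 to 355) in WT, from 8 of 39 and 26 of 50 cells, a ratio of 0.517 (0.355 to 0.739). Igll1 there had 218 CPM (165 to 283) in Col1a1fspKO against 509 (447 to 578) in WT, a ratio of 0.429 (0.315 to 0.575). Thinned, 15.4% (5.86 to 30.5) and 34% (21.2 to 48.8) of these cells held Vpreb1, and the intervals overlap. Btg2 cells also held fewer in Col1a1fspKO, with 1 UMI of Vpreb1 against 25 in 3 WT cells, and 0 of Igll1 against 19 in 5. In the Ccne2 sub-cluster the direction was the opposite for Vpreb1, with a ratio of 1.78 (1.28 to 2.50). Il7r in Cdc20 cells had a ratio of 1.53 (1.08 to 2.16), and 53.8% (37.2 to 69.9) and 30% (17.9 to 44.6) of the thinned cells held it, with intervals that overlap. These sub-clusters were singled out after their values were seen, and the median depth of Cdc20 cells was 5377 UMIs in Col1a1fspKO and 7846.5 in WT. Markers of red blood cells and their precursors moved with the Vpreb1 and Igll1 differences. The 7 erythrocyte markers summed to 7421 CPM in Cdc20 cells of Col1a1fspKO (6 of 7 seen, Klf1 at 0) and to 17464 CPM in those of WT (7 of 7). In Btg2 cells they summed to 8737 CPM (6 of 7, Klf1 at 0) and 46542 CPM (4 of 7 seen). The 7 Mono/Macro markers summed to 73.5 CPM (3 of 7 seen) and 427 CPM (6 of 7, Csf1r at 0) in Btg2 cells. The neutrophil markers of Cdc20 cells were 10325 and 8859 CPM. Their part in these differences was not tested.

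**Figure D5:**
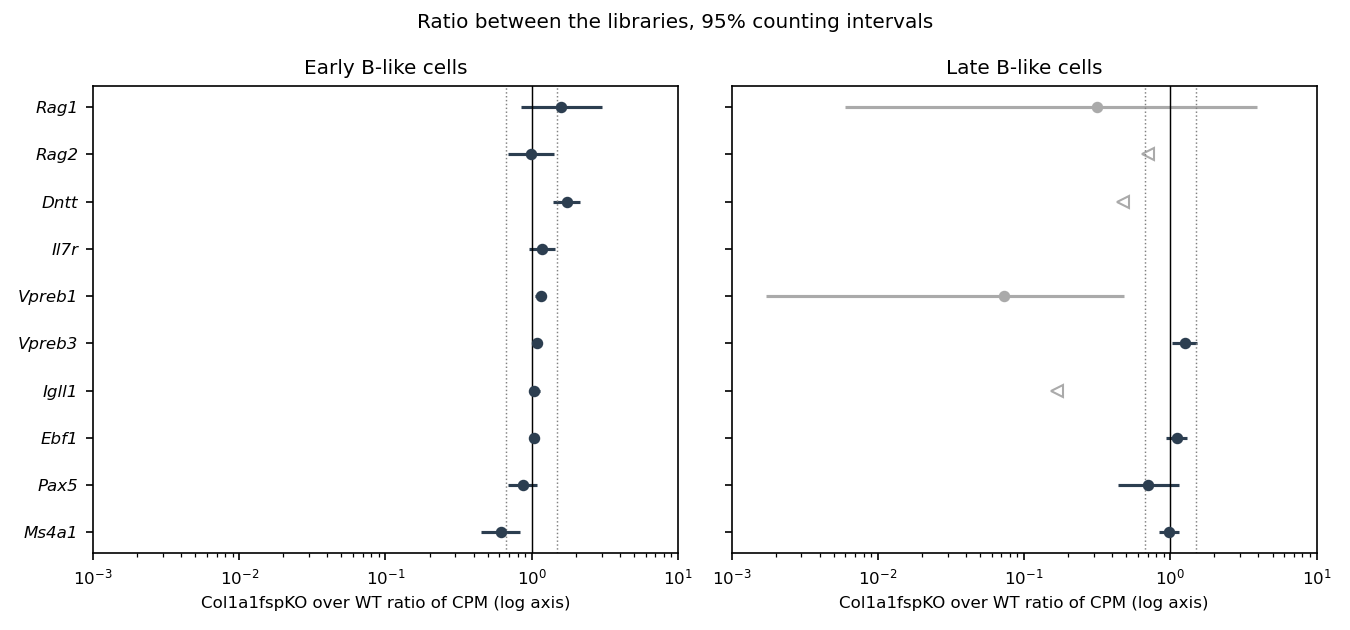
Ratio of CPM in Col1a1fspKO over WT (log axis) for each gene in early B-like cells (left) and late B-like cells (right), with exact binomial 95% counting intervals. Dark points have at least 20 UMIs over both libraries, grey points fewer, open triangles are bounds where Col1a1fspKO had 0 UMIs, no point is drawn for Il7r in late cells (2 and 0 UMIs), the solid line is 1 and the dotted lines are 1.5-fold. In early cells Dntt lies above (1.73) and Ms4a1 below (0.613), and the interval of Rag1 holds 1.

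The genes that act with these 10 were read from fixed lists, and a listed gene needed at least 20 UMIs. Of all genes in B cells-like cells, 6.64% were above and 7.56% below 1.5-fold in Col1a1fspKO. Early over late, 40% of all genes were above and 17.5% below in Col1a1fspKO, and 34.9% and 19.3% in WT. These stage shares are upper limits, since a side with 0 UMIs was kept at 0 in them. The lists are short, so the counts below are descriptions to be read beside these shares. Of 10 genes that repair the breaks made by the recombinase, 8 had enough UMIs in B cells-like cells, 0 were above 1.5-fold and 2 below in Col1a1fspKO, and the median ratio was 0.848. The highest were Xrcc5 at 1.16 (0.549 to 2.44), a Ku subunit, and Polm at 1.12 (0.683 to 1.84), a polymerase of end joining. The lowest were Poll at 0.544 (0.186 to 1.44), a related polymerase, from 7 and 14 UMIs, and Atm at 0.653 (0.252 to 1.59), the kinase that senses breaks, from 9 and 15. All 4 intervals hold 1. Early over late, 2 of 3 genes with enough UMIs were above and 1 below 1.5-fold in Col1a1fspKO, and 2 of 4 above and 0 below in WT.

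Of 12 genes of interleukin 7 receptor signalling, 10 had enough UMIs, 1 was above and 2 below, and the median was 1.05. The highest were the signal transducer Stat5a at 1.86 (0.926 to 3.90) and the shared receptor chain Il2rg at 1.43 (0.990 to 2.08). The lowest were Socs2, an inhibitor of cytokine signals, at 0.463 (0.311 to 0.677) from 40 and 94 UMIs, and cyclin D2, Ccnd2, at 0.590 (0.499 to 0.697) from 222 and 409 UMIs. These last 2 intervals lie below 1. Between the stages, 3 of 9 were higher and 6 lower in early cells of Col1a1fspKO, and 2 of 8 higher and 6 lower in WT. In both libraries Ccnd3, the cyclin of dividing pre-B cells, was higher in early cells, 5.94 and 5.16 times, and Il2rg (0.119 and 0.0945) and Bcl2, a survival factor (0.0394 and 0.0387), were lower.

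Of 9 genes of pre-B and B cell receptor signalling, all 9 had enough UMIs, 1 was above and 0 below, with a median of 0.947. The highest was Cd22, an inhibitory lectin, at 1.66 (0.951 to 2.93), then the phospholipase Plcg2 at 1.18 (0.866 to 1.61), and the lowest were Pik3cd, a lipid kinase subunit, at 0.751 (0.511 to 1.10) and the kinase Syk at 0.785 (0.627 to 0.981). Early over late, 0 were above and 5 below in Col1a1fspKO, and 1 above and 7 below in WT. Of 13 other transcription factors of the B lineage, all had enough UMIs and 0 passed in either direction, with a median of 0.954. They ran from Ikzf1 at 0.695 (0.598 to 0.806) and Bach2 at 0.783 (0.652 to 0.939) to Myb at 1.12 (0.948 to 1.32) and Spi1 at 1.22 (1.01 to 1.49). Between the stages, 3 were higher and 5 lower in early cells of Col1a1fspKO, and 3 higher and 6 lower in WT. Myb, which is needed for early B cells, was higher in early than in late cells, 5.07 and 6.82 times, and Tcf3, the E2A gene, 2.18 and 1.69 times. Of the 6 immunoglobulin constant genes on the list, 0 were in the tables used, and they were not analysed here.

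By a fixed rule, the genes whose level followed these patterns most closely were named over 36 points, each a cluster or sub-cluster of 1 library, among 8156 genes. The points share libraries and differ in depth, so the correlations are descriptions. The sum of Rag1 and Rag2 was most like 4930597A21Rik (Pearson's r 0.94), Capsl (0.93), Akap12 (0.93), Sec63 (0.92) and Bcl7a (0.91), and among the members it was nearest Vpreb3 (0.90) and farthest from Dntt (0.37). The sum of Vpreb1 and Igll1 was most like 6030408B16Rik (0.86), Arntl (0.83), Rsph1 (0.83), Sapcd1 (0.83) and Slamf7 (0.82). Ms4a1 was most like Fcmr (0.94), Tnfrsf13c (0.89), Bank1 (0.86), Gm43291 (0.83) and Blk (0.83).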

How the data were processed

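Bone marrow cells of 1 Col1a1fspKO and 1 WT pool were profiled by sc-RNA-seq (10x Genomics 3' v2). The values deposited are UMI counts, 1 table of genes by cells per library, without normalization by the authors. The submitters' processing notes name Cell Ranger, Seurat 3.5.3 and the mm10 build, and the Cell Ranger version is not given in the sources used here. The study's limits of 200 to 7000 genes and 10% mitochondrial UMIs removed 0 cells. No column belonged to another sample. Genes missing from 1 table were set to 0 UMIs there.

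The counts of both libraries were merged without integration and clustered with Seurat 5.3.0 in R 4.3.3 (2000 variable genes, 27 principal components, resolution 0.8). B cells-like cells were clustered again (1500 variable genes, 15 principal components). The 10 members, the listed genes, Vpreb2 and immunoglobulin V, D and J segments were excluded from the variable genes. Each cluster took the class with the highest mean z-score of its fixed markers, given 3 markers in at least 10% of cells, and it was left unnamed where its own markers were outnumbered by those of another class among its 10 leading genes. This rule was set with the clusters in view. These rebuilt names may not match the study's own. The members, marker and gene lists were chosen with earlier results of these data known. Doublets were kept. Scrublet in scanpy 1.11.5 called only 5 cells per library (0.38% in Col1a1fspKO and 0.43% in WT), and whether it missed doublets was not tested.

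UMIs were summed per class and library in Python 3.11.15 with scipy 1.17.1. Levels have exact Poisson, shares exact Clopper-Pearson and ratios exact binomial 95% intervals. For members and listed genes, a side with 0 UMIs was set to 3 UMIs over the class. In the shares over all genes it was kept at 0. For shares, cells were thinned to 2500 UMIs. The calculations were tested on simulated sums for B cells-like cells, drawn with counting error alone. This cannot show how the intervals do with spread between cells or mice. Of 7740 unchanged genes in it, 9.81% passed 1.5-fold. The named genes are the 10 members, the 2 highest and 2 lowest ratios of each list, and the 5 genes nearest to each pattern, as Pearson's r of log2(CPM + 10) over points with at least 10 cells and genes with at least 100 UMIs. Other genes named were chosen after their values were seen. Positions come from GENCODE M21 and promoter sequences from RefSeq (GRCm38.p6). The alternatives changed the genes clustered, resolution, number of components, integration, cell filter, depth, naming, level, scaling and doublets, and 1 that left out the S100a8 sub-cluster was added after seeing the data.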

Additional observations from a re-analysis of the deposited data

How the results depend on the processing

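No paired analysis was possible because each genotype has 1 library and no test was made, and for the same reason no library could be left out. Over 17 alternatives, Dntt in early B-like cells was higher in Col1a1fspKO in all 17, at 1.13 to 2.37 times, and Rag1 at 1.04 to 1.88. Ms4a1 in early cells was lower in 16 of 17 and turned to 1.17 with cells thinned to 2500 UMIs. Pax5 was lower in all 17, at 0.816 to 1.0 in early and 0.549 to 0.798 in late cells. Il7r in early cells ran from 1.08 to 1.23, Igll1 from 0.971 to 1.15 and Ebf1 from 0.937 to 1.2.

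The share of early B-like cells in WT, 74.8%, was 63.4% with only cells above a shared depth minimum clustered again, 64.2% with B cells taken by single-cell markers and 65.8% with stages taken by single-cell markers. The genes past 1.5-fold in B cells-like cells, 1, were 0 with cells thinned, with the shared depth minimum (clustered again or with the same classes), with B cells by single-cell markers and with the mean over cells. Those in early B-like cells, 3, were 1 with cells thinned and 1 with the mean over cells. The cause was not tested. The other 109 values of these counts and shares stayed within 1.5 times or within their interval, and so did 369 of 408 single ratios. Counts limit Rag1 and Rag2 most, and a replicate per genotype would be needed to test any of the ratios.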
